A study of Mus musculus with 18 samples.

Results

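The proteasome subunit genes were examined in 18 mouse mammary tumors by bulk RNA sequencing. They were taken as the protein-coding genes whose GENCODE symbol starts with Psm, a letter from a to g and a number, which gave 51 genes among the 57126 in the deposited table and the 21685 protein-coding ones. The pattern also takes Psmc3ip, which encodes a homologous recombination factor, and Psme3ip1, which encodes a partner of the nuclear activator Psme3. Neither is a subunit, and both were kept apart from the 49 subunits, activators and assembly factors.

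Tumors were induced by injecting adenovirus with Cre recombinase into the mammary gland of young adult female F1 hybrid mice (BALB/c by C57BL6/J). There were 7 MaPR172H/- tumors from 7 mice and 5 MaPR245W/- tumors from 5 mice, in which the mammary epithelium carried 1 missense allele of Trp53 and 1 deleted allele. The 6 MaP-/- tumors, without p53 in the epithelium, came from 4 mice, since mice JM663 and JM833 gave 2 tumors each. For the libraries labelled JM779-T1 and JM836-T1, the study's own list marks the mouse's other tumor as sequenced instead. Which of the mouse's tumors was sequenced is thus in doubt, while the genotype is the same. The groups thus share the Cre injection and the loss of normal p53 in epithelial cells, whereas stroma and immune cells kept wild-type Trp53. The reporter allele Rosa26LSL-TdTomato/+ was also present in 3 MaPR172H/- tumors (YZ2, YZ6 and YZ10) and in 3 MaPR245W/- tumors (JM1233, JM1564 and RM0014). All MaPR172H/- libraries were read on a HiSeq instrument with shorter reads, and all others on a NovaSeq. By the study's own typing, the MaPR172H/- tumors were luminal B or HER2-enriched, and the tumors of the other groups triple-negative. All MaPR172H/- tumors were nonmetaplastic adenocarcinomas, while the other groups also held metaplastic tumors. For MaPR172H/- the genotype, the platform and the molecular subtype thus cannot be told apart.

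The proteasome is the protease that degrades ubiquitin-tagged proteins, p53 itself among them after tagging by Mdm2. Its barrel-shaped core is built from rings of alpha subunits (Psma) around rings of beta subunits (Psmb), and a regulatory cap unfolds substrates with a ring of ATPases (Psmc) and recognises and strips ubiquitin with the other cap subunits (Psmd). Interferon gamma induces Psmb8, Psmb9 and Psmb10, which replace the catalytic subunits Psmb5, Psmb6 and Psmb7 to form the immunoproteasome, and induces the activator pair Psme1 and Psme2, a form tuned to making peptides for major histocompatibility complex class I.

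Total counts were between 23113578 and 37365062 per tumor. Trp53 RNA was at 10.8 to 50.1 CPM (counts scaled to the TMM library size) in MaPR172H/-, 9.08 to 58.9 in MaPR245W/- and 9.41 to 21.6 in MaP-/- tumors. The medians were 45.7, 27.0 and 12.2 CPM in that order, while the ranges overlapped. The summed level of 8 epithelial markers was lowest in JM779-T1 (168 CPM), YZ7 (442 CPM) and JM1233 (480 CPM), against at least 1082 CPM in the other 15 tumors. The 7 leukocyte markers summed to 334 to 823 CPM in MaPR172H/-, 624 to 1956 in MaPR245W/- and 716 to 1641 in MaP-/- tumors. All 7 lay lower in MaPR172H/- than in MaP-/- tumors, where 50.2% of all genes tested lay higher. By the test used below 3 of the 7 were lower (Cd53, Tyrobp and Ptprc), beside 4.73% of all genes. Of 6 fibroblast markers, 4 lay lower in MaPR172H/- than in MaP-/- tumors, 2 of them by that test (Lum, -1.98, and Pdgfra, -2.49; background 4.73%). The epithelial markers were higher in 8 of 8 (median 1.24). Of these, 0 were called by edgeR (background 3.67% higher) and 1 was at an unadjusted p below 0.05 (background 11.6% higher). The 8 skeletal muscle markers summed to 1152 CPM in JM1233 and 203 CPM in JM1133 and to at most 54.1 CPM elsewhere, and 6 adipocyte markers to 5426 CPM in JM833-T1 and at most 521 CPM elsewhere. Lep and Plin1 were at 0 in 4 tumors and Krt5, Ckm, Myh1 and Cidec in 1 each. In bulk tissue, fewer cells of a type and less RNA per cell cannot be told apart, and the part of these mixtures in the results that follow was not tested.

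Of the 51 genes, 50 had enough counts to be tested and 45 averaged at least 10 CPM. Psmb11, the beta subunit of the thymus, was too low, at 0 to 1.71 CPM with its highest level in YZ7. Psma8, the alpha subunit of the testis, was tested but stayed between 0.164 and 1.49 CPM. Per kilobase of the canonical transcript, the mean level over all tumors was highest for Psma7 (172.1 CPM per kb), Psmb6 (161), Psmd4 (133), Psmb4 (126) and Psmb3 (121). The 3 immunoproteasome genes lay between 28.8 and 50.8 CPM per kb, the ATPase genes between 39.1 and 118, and the 20S assembly factors, which help to build the core and are not part of it, between 8.07 and 19.8. The median SD of log2 CPM over the 45 abundant members was 0.28 in MaPR172H/-, 0.32 in MaPR245W/- and 0.38 in MaP-/- tumors. It was 0.38, 0.44 and 0.40 for 10381 protein-coding genes that also averaged at least 10 CPM. Those genes were not matched to the members' levels. Among the tested members, Psma8 (9.06-fold), Psmb9 (7.23-fold), Psmb8 (6.03-fold) and Psmb10 (5.64-fold) had the widest span from lowest to highest tumor, and Psmd11 (1.82-fold) the narrowest.

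**Figure D1:**
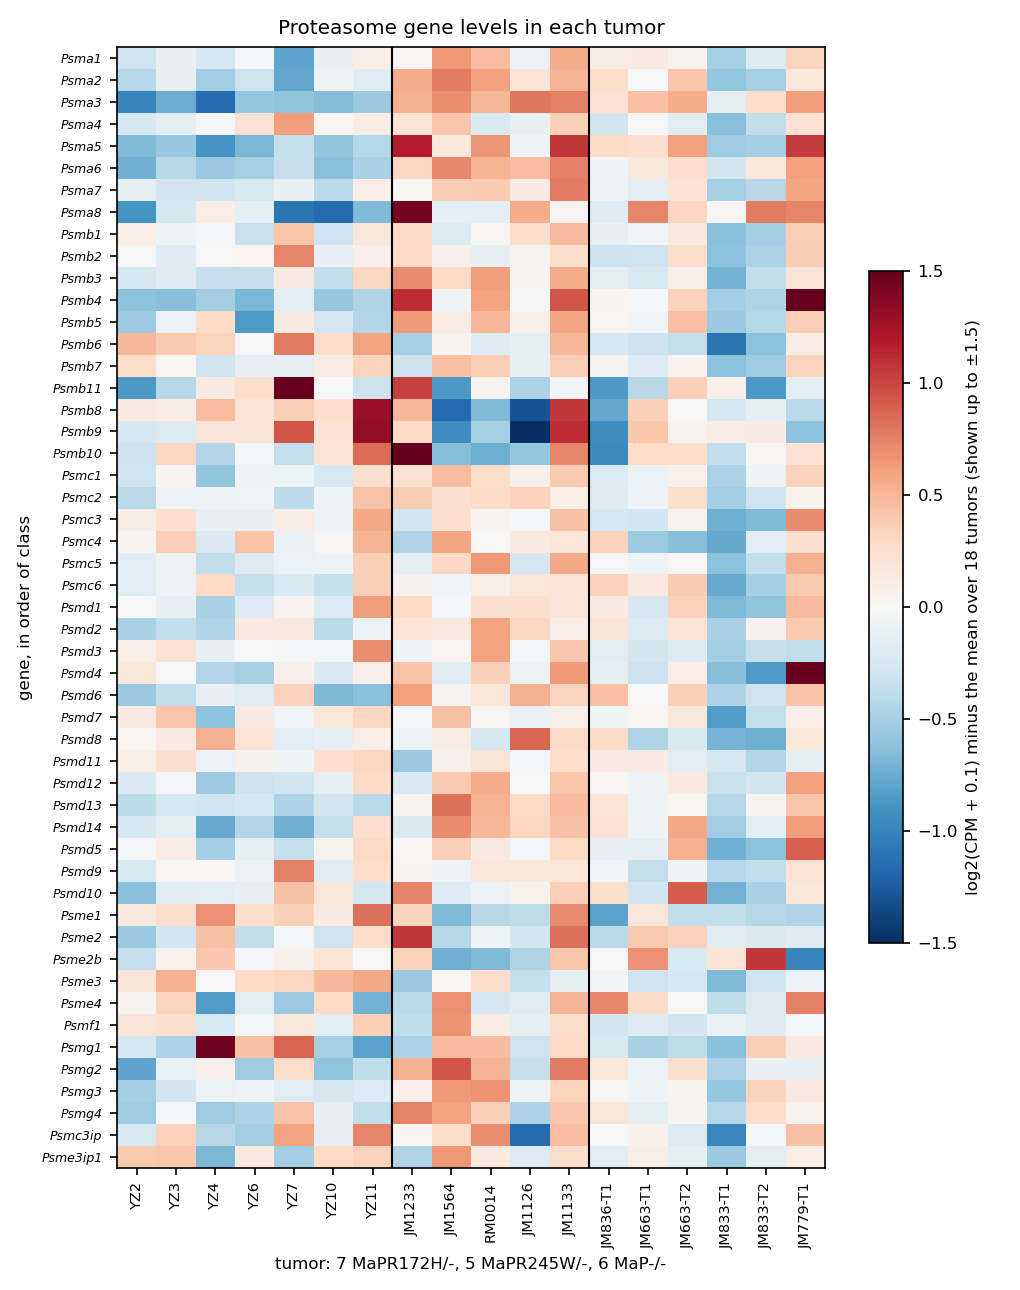
Each row is 1 of the 51 genes in order of class and each column 1 tumor, and the color gives log2(CPM + 0.1) minus the gene's mean over the 18 tumors, shown up to 1.5 either way. The alpha genes Psma3, Psma5 and Psma6 are below their mean in the 7 MaPR172H/- tumors, and JM779-T1 stands out for Psmb4 and Psmd4.

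The comparison of MaPR172H/- with MaP-/- tumors asks how tumors with the R172H protein differ from tumors with no p53. By edgeR's quasi-likelihood test with Benjamini-Hochberg adjustment over 20954 genes, 7 of the 50 tested members passed at a false discovery rate (FDR) below 0.05, beside 8.4% of all genes tested. Higher were 3 members, Psmb6, Psme1 and Psme3 (background 3.67%), and lower were 4, the alpha genes Psma3, Psma5, Psma6 and Psma8 (background 4.73%). Across the list 24 members lay above 0 and 26 below, where 50.2% of all genes, 54% of protein-coding genes and 54.7% of protein-coding genes at 10 CPM or more lay above. The members' median log2 fold change was -0.03, against 0.00 for all genes and 0.05 for protein-coding genes. The alpha genes had a median of -0.49, with 7 of 8 below 0, and the 7 tested beta genes without the immunoproteasome a median of 0.12, with 5 above 0. The alpha median counts Psma8, which had the largest change (-1.12) at only 0.164 to 1.49 CPM. The beta median leaves out Psmb11, which was too low to be tested, so the 2 medians are not like for like. Leaving out 1 tumor gave 2 to 5 lower members, with 2 without YZ2, YZ3, YZ6, YZ10, JM663-T1, JM663-T2 or JM779-T1.

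Promoters of 3 of the lower and 2 of the higher genes are shown first, so that genes of 1 complex that moved in opposite directions can be set side by side. Each line is the 250 bases before the canonical start, read 5′ to 3′ on the gene's strand from the GRCm39 genome with GENCODE M39 starts; all 5 genes lie on the plus strand. Capitals mark matches on either strand to the interferon-stimulated response element (GAAA, any 2 bases, GAAA), the gamma-activated site TTCNNNGAA, the antioxidant response element core TGACNNNGC, to which Nfe2l1 and Nfe2l2 bind, or the CCAAT box. The windows are chr12:71021126-71021375 for Psma3, chr3:108163836-108164085 for Psma5, chr12:55445310-55445559 for Psma6, chr11:70415933-70416182 for Psmb6 and chr11:101206527-101206776 for Psme3.
Psma3: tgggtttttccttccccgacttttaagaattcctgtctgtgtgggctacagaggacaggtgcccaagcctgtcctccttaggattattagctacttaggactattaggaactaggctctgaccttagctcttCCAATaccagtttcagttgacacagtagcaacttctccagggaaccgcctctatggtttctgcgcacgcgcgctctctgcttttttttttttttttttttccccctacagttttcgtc
Psma5: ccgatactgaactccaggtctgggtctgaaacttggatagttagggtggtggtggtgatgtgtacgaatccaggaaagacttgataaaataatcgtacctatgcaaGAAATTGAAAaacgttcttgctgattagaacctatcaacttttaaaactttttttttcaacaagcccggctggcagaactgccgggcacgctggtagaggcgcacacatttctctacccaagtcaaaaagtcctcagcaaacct
Psma6: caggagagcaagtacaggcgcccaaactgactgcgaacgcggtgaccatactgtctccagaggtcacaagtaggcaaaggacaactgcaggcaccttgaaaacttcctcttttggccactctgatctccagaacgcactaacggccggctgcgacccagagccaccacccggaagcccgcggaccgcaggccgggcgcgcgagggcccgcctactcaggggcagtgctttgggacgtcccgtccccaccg
Psmb6: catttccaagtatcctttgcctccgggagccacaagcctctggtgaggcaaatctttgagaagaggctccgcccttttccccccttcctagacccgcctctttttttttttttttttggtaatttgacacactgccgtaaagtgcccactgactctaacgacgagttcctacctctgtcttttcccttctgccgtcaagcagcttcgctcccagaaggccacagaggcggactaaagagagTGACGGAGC
Psme3: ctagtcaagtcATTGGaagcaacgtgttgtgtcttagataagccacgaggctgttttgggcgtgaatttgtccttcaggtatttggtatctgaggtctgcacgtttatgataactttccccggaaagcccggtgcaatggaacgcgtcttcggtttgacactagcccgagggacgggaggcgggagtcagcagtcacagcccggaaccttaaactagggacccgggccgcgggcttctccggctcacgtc
Psma5, which was lower, holds an interferon-stimulated response element match that starts 144 bases before the gene, and Psmb6, which was higher, a TGACNNNGC match that ends at the gene's start. Psma3, lower, and Psme3, higher, each hold a CCAAT box, at 118 and 239 bases, and the Psma6 window holds none of the 4. Over the whole list, the antioxidant response element core was found in 7 of 51 windows (13.7%) against 9.69% of 21770 promoters, and the interferon-stimulated response element in 6 (11.8%) against 3.32%. TTCNNNGAA was found in 4 windows (7.84%) against 7.7%, and CCAAT in 19 (37.3%) against 36.5%. None of the windows of Psmb8, Psmb9 and Psmb10 held the interferon-stimulated response element or TTCNNNGAA. A match is a description of these letters only.

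Psma3, an alpha ring subunit, was at 27.0, 38.2 and 40.6 CPM (lowest, median and highest) in the 7 MaPR172H/- tumors. In MaPR245W/- its levels were 86.8 (JM1233), 96.7 (JM1564), 84.6 (RM0014), 104 (JM1126) and 101 (JM1133) CPM, and in MaP-/- tumors they ran from 54.6 over a median of 76.6 to 92.1 CPM. Every MaPR172H/- tumor was below every other tumor. The log2 fold change was -1.07 ± 0.15 (SE, n = 7 and 6) against MaP-/- (edgeR FDR 0.00111) and -1.40 ± 0.15 (n = 7 and 5) against MaPR245W/- (edgeR FDR 1.21e-05). Psma3 shares at least 90% of its sequence over 200 bases or more with 3 processed pseudogenes, and adding their counts left the difference from MaP-/- at -1.06.

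Psma6, another alpha subunit, gave 43.7, 50.9 and 56.7 CPM in MaPR172H/- tumors (lowest, median and highest). Its levels in MaPR245W/- were 90.1, 119, 104, 99.1 and 122 CPM in the same order of tumors, and in MaP-/- 59.3, 81.0 and 111 CPM. Again no MaPR172H/- tumor reached the lowest of the other 2 groups. The log2 difference was -0.67 ± 0.15 from MaP-/- (edgeR FDR 0.0136) and -1.08 ± 0.14 from MaPR245W/- (edgeR FDR 0.000118).

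Psma5, also of the alpha ring, was at 52.5, 64.0 and 75.3 CPM in MaPR172H/-, at 219, 108, 153, 92.2 and 203 CPM in MaPR245W/- and at 66.7, 117 and 201 CPM in MaP-/- tumors. The MaPR172H/- range overlapped that of MaP-/- through both tumors of mouse JM833 and stayed below MaPR245W/-. Its fold change was -0.89 ± 0.24 against MaP-/- (edgeR FDR 0.0366) and -1.27 ± 0.26 against MaPR245W/- (edgeR FDR 0.00507). The call against MaP-/- was lost when any 1 of 9 tumors was left out (YZ2, YZ3, YZ4, YZ6, YZ10, JM836-T1, JM663-T1, JM663-T2 or JM779-T1), with -0.66 and FDR 0.0652 without JM779-T1.

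Psma8 was lower as well, at -1.12 ± 0.33 (edgeR FDR 0.0492), but from 0.164 to 0.529 CPM in MaPR172H/- and 0.414 to 0.909 CPM in MaP-/- tumors, with levels of 1.49, 0.432, 0.43, 0.766 and 0.496 CPM in MaPR245W/-. Its counts were 4 to 50 per tumor, the groups overlapped, and the call was lost without any 1 of 10 tumors (YZ2, YZ3, YZ6, YZ7, YZ10, YZ11, JM663-T1, JM663-T2, JM833-T2 or JM779-T1) and with the tumors of 1 mouse summed (-1.08, FDR 0.119), no filter (FDR 0.141), all 18 tumors in the fit (FDR 0.0659) or protein-coding genes alone (FDR 0.0673). Of the other alpha genes, Psma1, Psma2 and Psma7 had log2 fold changes of -0.19, -0.31 and -0.17, and Psma4 of 0.30, and none passed the test.

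**Figure D2:**
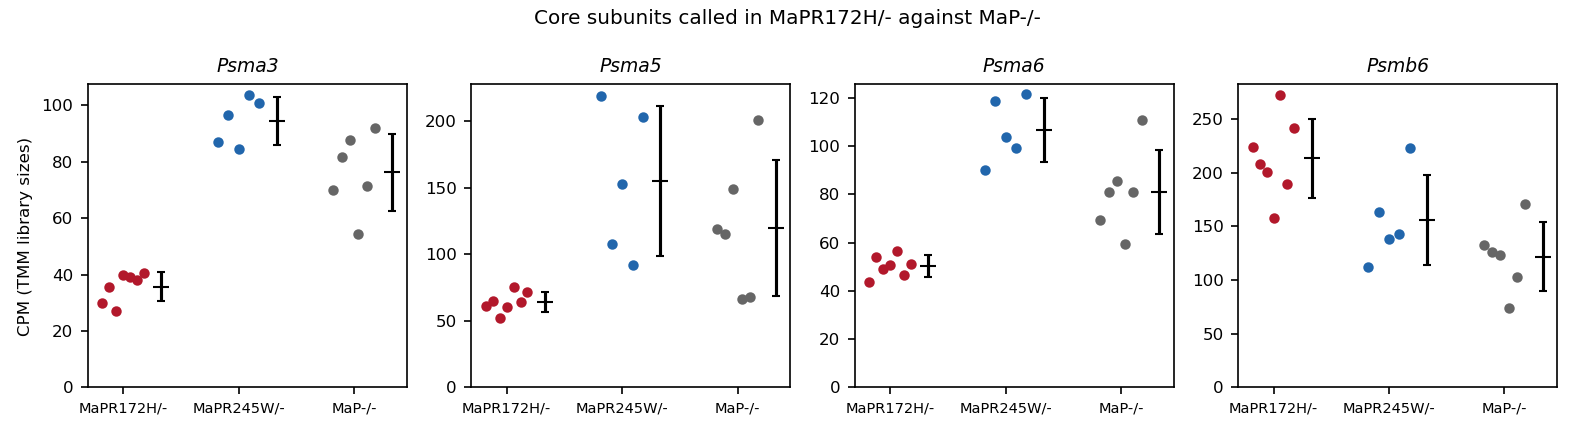
Points are CPM in each tumor by group, from 0, and the bars beside them give the mean and SD (n = 7, 5 and 6) for the 4 abundant core genes called in MaPR172H/- against MaP-/-. Psma3 and Psma6 are below all other tumors in the 7 MaPR172H/- tumors, while Psmb6 is mostly above.

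Psmb6, the constitutive beta subunit with caspase-like activity, moved the other way. It was at 158, 208 and 272 CPM in MaPR172H/-, at 112, 163, 139, 143 and 223 CPM in MaPR245W/- and at 74.0, 125 and 171 CPM in MaP-/- tumors. JM779-T1, the highest MaP-/- tumor, lay above the lowest MaPR172H/- tumor, so the groups overlapped. The log2 fold change was 0.82 ± 0.19 (edgeR FDR 0.0184), and with the tumors of 1 mouse summed, so that each mouse counted once, it was 0.75 with FDR 0.0622.

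The catalytic partners of Psmb6 did not pass the test. Psmb5, with the chymotrypsin-like activity, was at 14.7, 22.3 and 32.8 CPM in MaPR172H/-, 41.6, 28.7, 37.7, 27.9 and 40.1 CPM in MaPR245W/- and 18.1, 26.6 and 36.5 CPM in MaP-/- tumors, a log2 difference of -0.20 ± 0.23 for MaPR172H/-. Adding the counts of its pseudogenes, among them Gm3375 with 99.0% identity, turned that value to 0.09. Psmb7, with the trypsin-like activity, was at 59.6, 75.1 and 92.7 CPM, at 58.8, 101, 94.6, 67.6 and 94.5 CPM and at 47.7, 69.8 and 92.5 CPM in the 3 groups, a difference of 0.17 ± 0.18.

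Psmb4, a structural beta subunit, was at 82.1, 88.8 and 118 CPM in MaPR172H/-, at 284, 128, 201, 129 and 253 CPM in MaPR245W/- and at 92.9, 133 and 427 CPM in MaP-/- tumors. Its log2 difference from MaP-/- was -0.91 ± 0.32 (edgeR FDR 0.0998) and rested largely on 1 tumor, since it was -0.40 without JM779-T1.

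Of the activators, Psme3, the nuclear PA28 gamma that stimulates ubiquitin-independent breakdown, was at 82.6, 103 and 122 CPM in MaPR172H/- and at 52.1, 68.0 and 80.0 CPM in MaP-/- tumors. The 2 groups did not overlap. MaPR245W/- tumors had 56.1, 83.8, 99.5, 64.5 and 75.2 CPM. The log2 fold change against MaP-/- was 0.64 ± 0.14 (edgeR FDR 0.0129), and 0.60 with FDR 0.0501 when each mouse counted once. Psme4, the nuclear activator PA200, and Psmf1, a proteasome inhibitor, gave -0.41 ± 0.26 and 0.29 ± 0.13 without passing.

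Psme1 and Psme2, which form the interferon-induced activator ring together, differed. Psme1 was at 93.5, 103 and 152 CPM in MaPR172H/-, 108, 54.3, 64.3, 65.6 and 141 CPM in MaPR245W/- and 49.1, 64.9 and 97.4 CPM in MaP-/- tumors, a rise of 0.77 ± 0.17 against MaP-/- (edgeR FDR 0.0164), and only JM663-T1 among the MaP-/- tumors reached the MaPR172H/- range. Psme2 was at 55.2, 66.5 and 109.6 CPM, at 169, 60.9, 77.3, 66.4 and 144 CPM and at 61.2, 71.3 and 107 CPM, a difference of -0.05 ± 0.20 for MaPR172H/-. Psme2 and Psme2b share 99.4% of their bases, so reads may be split between them. A test of the difference between Psme1 and Psme2 was not run.

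No gene of the regulatory cap was called by edgeR in this comparison, and DESeq2 called Psmd3. The 6 ATPase genes had a median of 0.02 (-0.09 to 0.12 with 1 tumor left out), from -0.10 for Psmc6 to 0.38 for Psmc4. The 11 other cap subunits had a median of -0.19, which was 0.17 without JM779-T1, and ranged from -0.47 for Psmd14, the deubiquitinase, to 0.48 for Psmd3. Psmd3, a lid subunit, was at 112, 121 and 196 CPM in MaPR172H/- against 84.8, 97.3 and 108 CPM in MaP-/- tumors without overlap, with an edgeR FDR of 0.056 and a DESeq2 FDR of 0.0211. The 3 cap assembly factors had a median of -0.14, which was 0.11 without JM663-T2 or JM779-T1, and the 4 core assembly factors of -0.19. Groups did not overlap for 2 members in each direction (background 2% higher and 2.62% lower), Psme3 and Psmd3 above and Psma3 and Psma6 below.

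**Figure D3:**
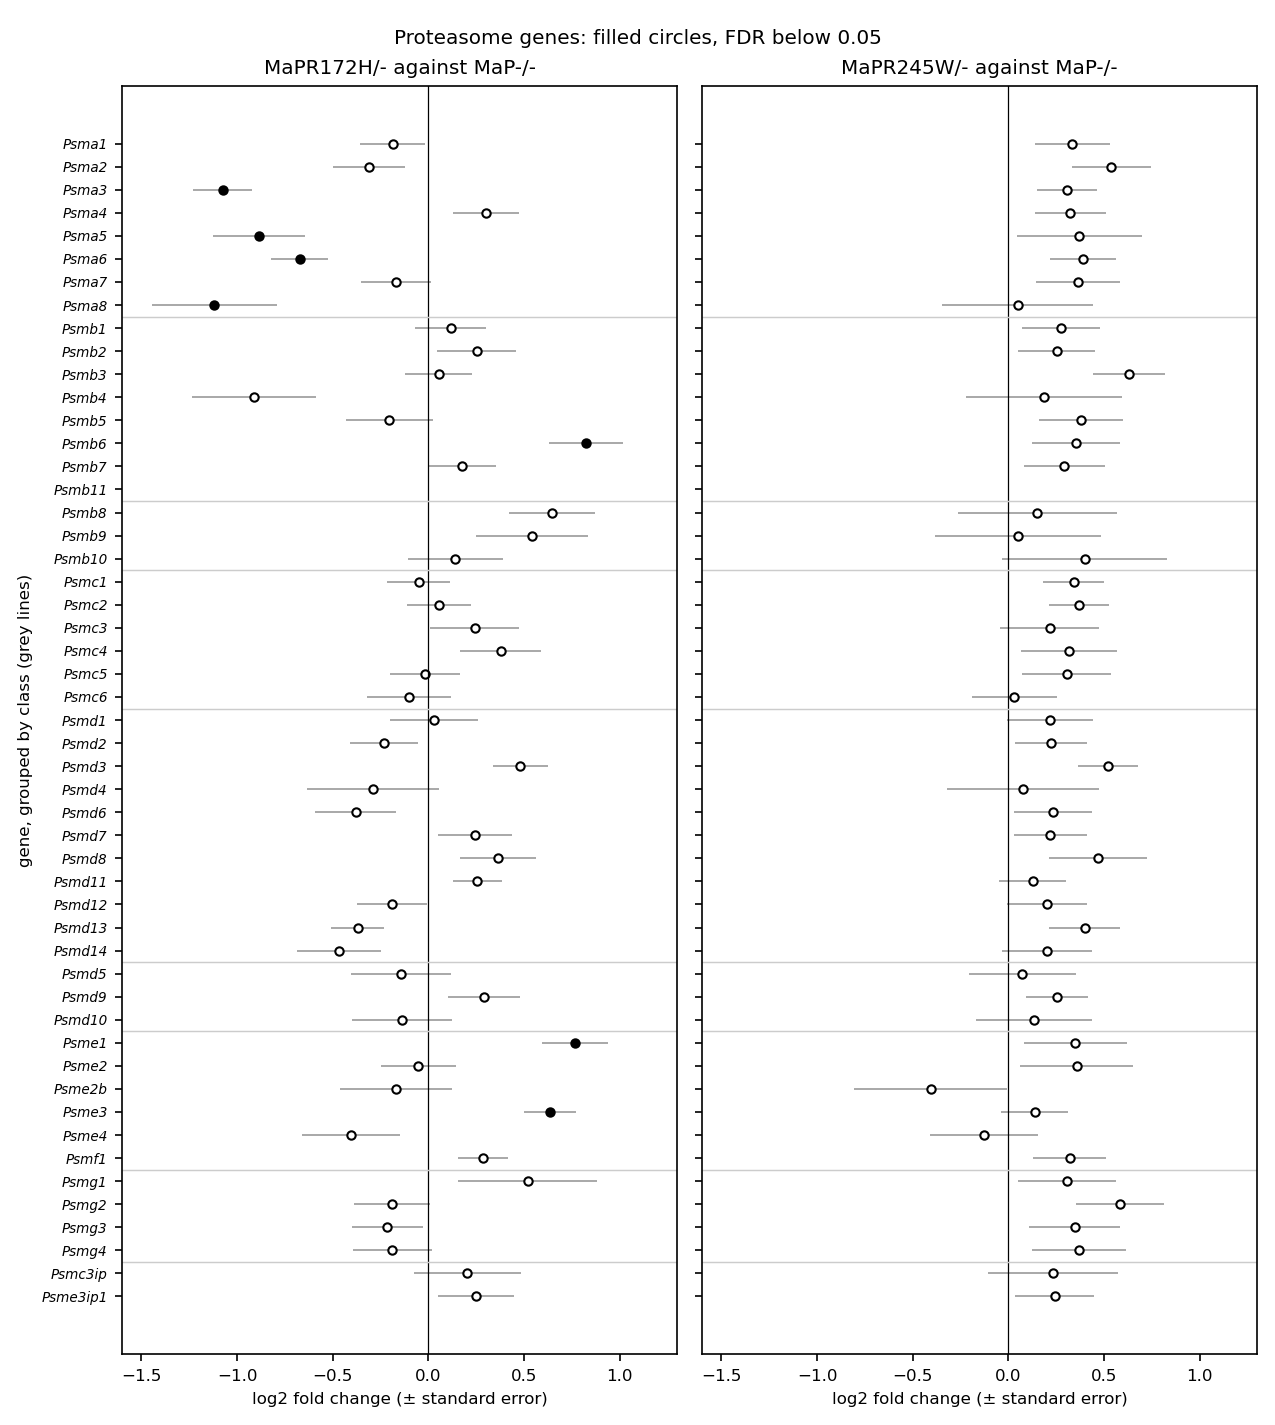
Log2 fold change with its standard error for the 50 tested genes, by class, for MaPR172H/- (left) and MaPR245W/- (right) against MaP-/- tumors, with filled circles for FDR below 0.05. On the left 7 circles are filled and points fall on both sides of 0, and on the right none is filled and 48 of 50 lie above 0.

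Comparing MaPR245W/- with MaP-/- tumors asks the same of the R245W protein. No proteasome gene passed at FDR below 0.05 with edgeR, where 0% of 21452 genes did. Without adjustment, 6 members were higher at p below 0.05 and 0 lower, against 5.32% and 6.46% of all genes. Of 10377 protein-coding genes at 10 CPM or more, 845 were higher and 169 lower at that p. DESeq2 called 1 member, Psmd3 (FDR 0.0493), beside 1.75% of its genes. In direction, 48 of 50 members lay above 0 and only Psme2b (-0.41) and Psme4 (-0.13) below, and the median was 0.30 on the log2 scale. Of all genes tested 51.8% lay above 0 (median 0.02), of protein-coding genes 62.6% (median 0.12), and of protein-coding genes at 10 CPM or more 69.2% (median 0.16). All of these fold changes rest on the same 11 tumors, so they are not separate observations.

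The summed level of the 51 genes was 5464, 5714, 5658, 4996 and 6581 CPM in the MaPR245W/- tumors, 3276, 4767 and 6633 CPM (lowest, median and highest) in MaP-/- and 4145, 4418 and 5518 CPM in MaPR172H/- tumors. The MaP-/- range held that of MaPR172H/- and all MaPR245W/- tumors. Its lowest tumor was JM833-T1, which had the highest adipocyte marker sum, and its highest was JM779-T1, which had the lowest epithelial marker sum. The next lowest was JM833-T2 of the same mouse, at 3822 CPM, and the other MaP-/- tumors ran from 4591 to 6633 CPM. Leaving out each tumor in turn left 43 to 48 members above 0. That never removed both tumors of mouse JM833, so it cannot show whether the direction rests on this mouse.

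Psmb3, a structural beta subunit, had the smallest p and the largest change. It was at 148, 111, 140.0, 92.8 and 133 CPM in MaPR245W/- and at 55.3, 79.1 and 103 CPM in MaP-/- tumors, which overlapped through JM1126, and the log2 fold change was 0.63 ± 0.19 (edgeR FDR 0.36). Psmd3 was at 117, 123, 184, 119 and 159.6 CPM, all above the highest MaP-/- tumor at 108 CPM, for 0.52 ± 0.16 (edgeR FDR 0.36). It was the 1 member whose groups did not overlap (background 0.466%). Psma2, an alpha subunit, was at 204, 238, 213, 159.7 and 198 CPM against 92.7, 146 and 185 CPM (0.54 ± 0.20, edgeR FDR 0.374), and Psmg2, an assembly chaperone of the core, at 28.02, 37.3, 27.6, 15.2 and 33.3 CPM against 14.03, 18.03 and 22.8 CPM (0.58 ± 0.23, edgeR FDR 0.384). By class the medians were 0.35 for alpha (Psma8 included), 0.29 for beta, 0.31 for ATPase and 0.22 for other cap genes, and 0.36 for core assembly factors.

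Set directly against MaPR245W/- tumors in a fit of all 18, MaPR172H/- tumors had 8 members lower and 0 higher at FDR below 0.05 with edgeR (background 9.4% in all, 6.49% lower and 2.91% higher). Without adjustment 20 members were lower and 2 higher at p below 0.05, against 14.6% and 11.4% of all genes. Of 10381 protein-coding genes at 10 CPM or more, 1864 were lower and 698 higher at that p. DESeq2 called 13 lower and 1 higher, beside 12.2% of its genes in both directions together. Of the 50 members 12 lay above 0 and 38 below, where 50.2% of all genes, 44.8% of protein-coding genes and 40.1% of those at 10 CPM or more lay above. The median was -0.28, against 0.00 for all genes and -0.11 for protein-coding genes at 10 CPM or more. All 8 alpha genes, the barely detected Psma8 among them, lay below 0, with a median of -0.98. The medians were -0.17 for the beta genes, -0.25 for the ATPase genes, -0.37 for the other cap genes and -0.58 for the core assembly factors. Groups did not overlap for 0 higher members (background 1.77%) and 6 lower members (background 4.05%): Psma2, Psma3, Psma5, Psma6, Psmb4 and Psmd13.

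Besides Psma3, Psma5 and Psma6, the called genes were Psma2, Psmd13, Psmg2, Psmb4 and Psmb3. Psma2 was at 81.0, 112 and 131 CPM in MaPR172H/-, below each MaPR245W/- tumor given before, for -0.87 ± 0.18 (edgeR FDR 0.00515). Psmd13, a lid subunit, was at 57.0, 63.5 and 66.0 CPM in MaPR172H/-, at 80.9, 139, 113, 96.3 and 109 CPM in MaPR245W/- and at 58.2, 80.4 and 105 CPM in MaP-/- tumors, for -0.79 ± 0.15 (edgeR FDR 0.0024). Psmb4 gave -1.10 ± 0.32 (FDR 0.0399), Psmg2, at 11.2, 14.8 and 23.5 CPM in MaPR172H/-, -0.80 ± 0.23 (FDR 0.0334) and Psmb3, at 70.1, 75.5 and 112 CPM, -0.60 ± 0.18 (FDR 0.0412), all by edgeR. The calls were lost without any 1 of 10 tumors for Psmb3, of 9 for Psmb4 and of 8 for Psmg2. Psmb3 also lost it with the tumors of 1 mouse summed (FDR 0.0512), DESeq2 size factors (FDR 0.0516), no filter (FDR 0.0988), only the 2 mutant groups in the fit (FDR 0.0543) or protein-coding genes alone (FDR 0.0632). Psmb4 and Psmg2 lost it with no filter too, Psmb4 among protein-coding genes and Psmg2 with only the mutant groups. By tumor left out, the number of lower members ran from 5 (without YZ2, YZ6, YZ10, RM0014 or JM1133) to 10. Psma2, Psma3, Psma5, Psma6 and Psmd13 stayed called whichever tumor was left out.

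Interferon gamma signaling bears on the 3 immunoproteasome genes, of which Psmb8 (chr17:34416690-34420428) and Psmb9 (chr17:34400960-34406738) are neighbors in the major histocompatibility complex, while Psmb10 is at chr8:106662362-106665077 (GRCm39). Psmb8, which takes the place of Psmb5, was at 84.0, 92.8 and 192 CPM in MaPR172H/-, 110.0, 34.8, 49.2, 31.8 and 163 CPM in MaPR245W/- and 45.9, 67.6 and 99.7 CPM in MaP-/- tumors. Its log2 difference was 0.65 ± 0.22 for MaPR172H/- (edgeR FDR 0.0938) and 0.15 ± 0.42 for MaPR245W/- (edgeR FDR 0.902) against MaP-/-. Psmb9, which replaces Psmb6, was at 28.9, 39.6 and 86.3 CPM, at 42.5, 18.1, 24.5, 11.9 and 74.6 CPM and at 18.1, 36.6 and 46.2 CPM, with differences of 0.54 ± 0.29 and 0.05 ± 0.43. Psmb10, which replaces Psmb7, was at 31.9, 42.6 and 77.5 CPM, at 126, 27.9, 25.9, 29.0 and 72.0 CPM and at 22.3, 47.3 and 52.2 CPM, with differences of 0.14 ± 0.25 and 0.40 ± 0.43.

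None of the 3 passed in any of the 3 comparisons, and intervals of 2 standard errors, as for Psmb8 in MaPR245W/- (-0.68 to 0.98), were wide. The MaPR245W/- tumors fell apart: JM1233 and JM1133 were above the other 3 for all 3 genes and for Psme1 and Psme2. This order was not particular to them, since the same 2 tumors were highest for core genes such as Psma5, Psmb4 and Psmb5. It was not common to all members either, as JM1233 was the lowest MaPR245W/- tumor for Psmb6 and Psmb7. The SD of log2 CPM in that group was 1.04 for both Psmb8 and Psmb9 and 1.02 for Psmb10, against 0.38, 0.52 and 0.49 in MaP-/- tumors. Without JM1133 the MaPR245W/- difference of Psmb8 was -0.30 and that of Psmb9 -0.44, and without JM1233 that of Psmb10 was -0.14. Psmb9 also fell below 0 without JM836-T1 or JM779-T1. JM1233 and JM1133 also had the 2 highest skeletal muscle sums.

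**Figure D4:**
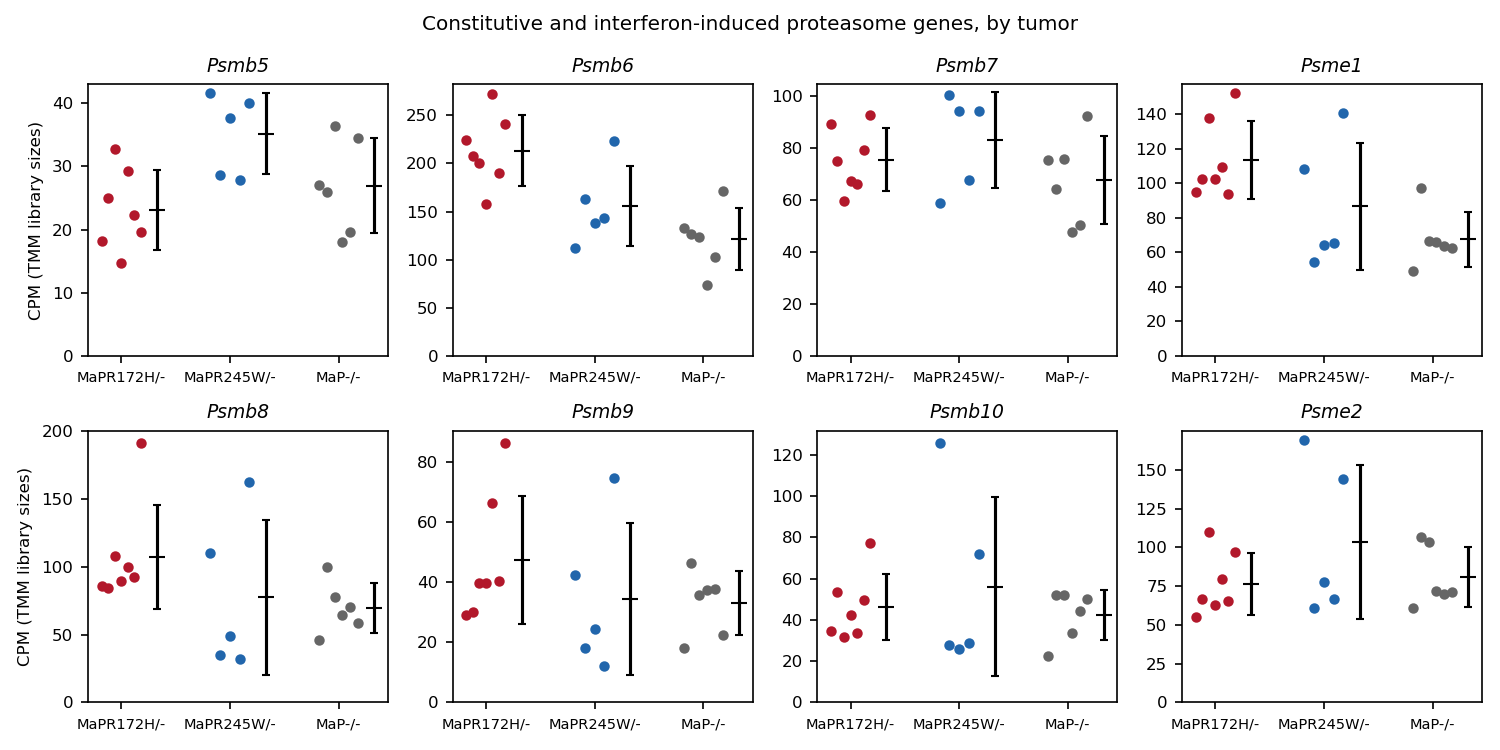
Points are CPM per tumor by group, from 0, with the mean and SD (n = 7, 5 and 6) beside them, for the constitutive catalytic genes (top) above the immunoproteasome genes that replace them (bottom), and for Psme1 and Psme2 (right). JM1233 and JM1133 lie above the other 3 MaPR245W/- tumors for all 3 immunoproteasome genes, and YZ11 is the highest MaPR172H/- tumor for each.

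As the ratio of each replacement to its counterpart, per kilobase and with 1 value per mouse, Psmb8 over Psmb5 was at a log2 of 2.20 ± 0.58 (SD, n = 7) in MaPR172H/-, 0.85 ± 0.82 (n = 5) in MaPR245W/- and 1.22 ± 0.54 (n = 4) in MaP-/- mice. The difference of MaPR172H/- was 0.98 from MaP-/- (exact permutation p = 0.0242, adjusted over 9 tests 0.109) and 1.35 from MaPR245W/- (exact permutation p = 0.0101, adjusted 0.0909), both two-sided and neither past the threshold after adjustment. The ratio used Psmb5 counts without those of its pseudogene Gm3375, which took 17 to 1030 counts per tumor. Summing the near copies moved the Psmb5 difference of MaPR172H/- from MaP-/- from -0.20 to 0.09. How far this split of reads enters the ratio was not tested. Psmb8 stood above Psmb5 per kilobase in 18 of 18 tumors, Psmb9 above Psmb6 in 0 and Psmb10 above Psmb7 in 1, JM1233. With the union of exons as length, the median of MaPR245W/- for Psmb8 over Psmb5 fell to -0.55, so these orders of level depend on the length used, although differences between groups do not. For MaPR245W/- against MaP-/- it was -0.37 (adjusted exact permutation p = 0.952). The other 2 ratios differed by at most 0.29 between groups, with adjusted exact permutation p of 0.952 for each.

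Across the 16 mice, 9 relations of log2 CPM were computed. Psmb10 rose with Irf1, the interferon-induced transcription factor, with Pearson's r = 0.877 (permutation p = 3e-05, adjusted 0.00027) and Spearman's rho = 0.841 (permutation p = 9e-05, adjusted 0.00081). Without the 2 mice farthest from the median of Irf1, r was 0.782 (adjusted permutation p = 0.0114), and within platforms it was 0.909 over the 7 HiSeq mice (adjusted exact p = 0.0821) and 0.887 over the 9 NovaSeq mice (adjusted exact p = 0.0148). Psmb8 gave r = 0.674 with Irf1 (permutation p = 0.0043, adjusted 0.0193) and rho = 0.632 (permutation p = 0.00976, adjusted 0.0439). That relation was 0.594 (adjusted permutation p = 0.118) without the 2 farthest mice, 0.443 (adjusted exact p = 0.611) on HiSeq and 0.855 (adjusted exact p = 0.0148) on NovaSeq, so the adjusted call was lost without those 2 mice and within HiSeq. Psmb9 reached r = 0.535 and rho = 0.591 with Irf1 (permutation p = 0.0327 and 0.0175, adjusted 0.0982 and 0.0526). With Ptprc, the marker of all leukocytes, r was -0.305 for Psmb8, -0.400 for Psmb9 and 0.123 for Psmb10, with rho of -0.315, -0.291 and -0.0029, and a smallest permutation p of 0.125. With the constitutive counterpart r was -0.071 for Psmb8, 0.415 for Psmb9 and -0.063 for Psmb10, with rho of 0.121, 0.350 and -0.097 and a smallest permutation p of 0.109.

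Among 16 genes of peptide loading and interferon gamma signaling, 15 were tested. In MaPR172H/- against MaP-/-, 12 of them lay above 0 (median 0.39), where 50.2% of all genes did. Of protein-coding genes at 10 CPM or more, 54.7% lay above 0. Only Tap2, part of the peptide transporter, was called, at 0.84 ± 0.24 (edgeR FDR 0.043, background 3.67% higher), and Ifng was too low to be tested. In MaPR245W/- 8 of 15 lay above 0 (median 0.02), beside 51.8% of all genes and 69.2% of protein-coding genes at 10 CPM or more. There 0 were called by edgeR, and 0 were at an unadjusted p below 0.05. Irf1 itself differed by 0.07 ± 0.23 and 0.03 ± 0.32 from MaP-/- in the 2 mutant groups.

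Of 26 partner genes of the proteasome, 25 were found and tested. Against MaP-/- tumors, MaPR172H/- had 1 of 25 higher (background 3.67%), the ubiquitin receptor Adrm1 (0.75 ± 0.16, edgeR FDR 0.0127), and among the lower genes were Ubb (-0.71 ± 0.13, FDR 0.00594) and Rps27a (-1.16 ± 0.22, FDR 0.00696), which encode ubiquitin. Near copies of these genes were not searched for. Nfe2l1, the factor that drives proteasome genes when the proteasome falls short, was at 0.67 ± 0.21. It was called by DESeq2 (FDR 0.0242) and not by edgeR (FDR 0.0602). Nfe2l2 was at -0.09 ± 0.30 and the assembly factor Pomp at -0.14 ± 0.15. In MaPR245W/- none was called by edgeR (background 0%), 2 were higher at an unadjusted p below 0.05 (background 5.32%), and the median was 0.27. Between the mutants, the genes lower in MaPR172H/- by edgeR included Ubb (-1.08 ± 0.16, FDR 0.000258), Rps27a (-1.46 ± 0.27, FDR 0.00218) and Zfand5, a proteasome activator (-0.97 ± 0.27, FDR 0.033).

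The genes around Psmb4 and Psmg1 were looked at in the tumor where each was highest in its group. The library labelled JM779-T1 had Psmb4 at 427 CPM, where no other MaP-/- tumor passed 168, and Psmd4, the ubiquitin receptor of the cap, at 471 CPM, where no other passed 176. Both genes are on chromosome 3 close to each other. Of 36 other genes within 1 Mb of Psmb4, 24 were over 2-fold above the median of the other MaP-/- tumors, and within 10 Mb 97 of 206, against 9.95% of 11655 genes in that tumor. In YZ4, Psmg1, an assembly chaperone on chromosome 16, was at 52.4 CPM, where the next MaPR172H/- tumors were YZ7 at 34.8 and YZ6 at 25.7 CPM, and 3 of 9 neighbors within 1 Mb and 30 of 64 within 10 Mb were over 2-fold above, against 6.802% of 11658 genes. These regions were looked at after the 2 values had been seen, and DNA copy number was not measured here.

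**Figure D5:**
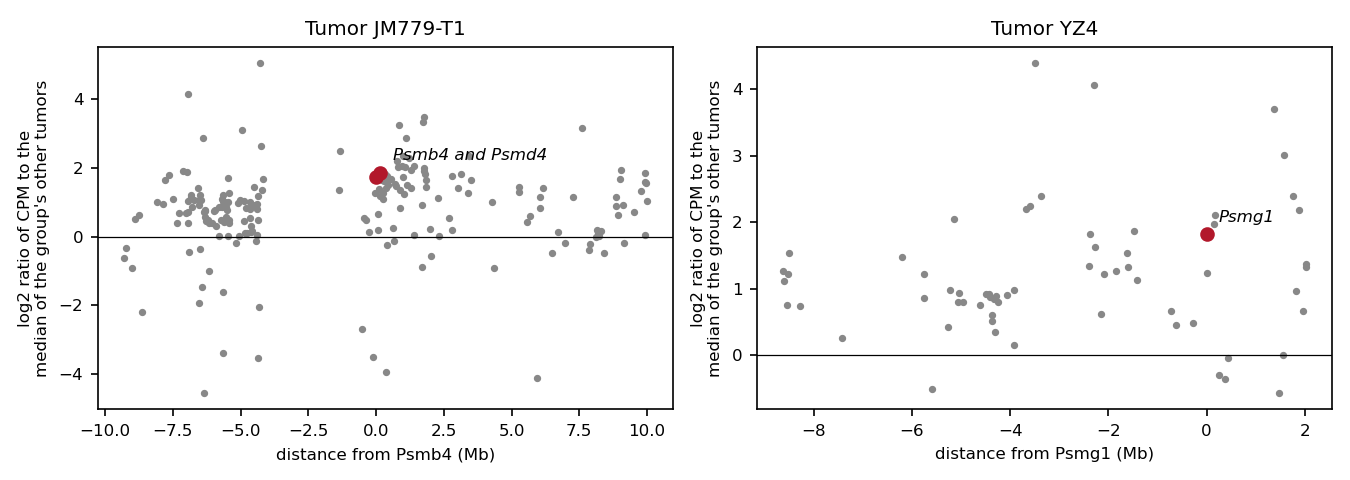
Each point is a gene at its distance from Psmb4 (left, JM779-T1) or Psmg1 (right, YZ4) in Mb, with the log2 ratio of CPM + 0.1 in that tumor to the median of its group's other tumors. Proteasome genes are in red, and 97 of 206 genes on the left and 30 of 64 on the right lie above 1.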

How the data were processed

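RNA was measured in 18 mammary tumors. Per the labels and the study's methods, stranded total RNA libraries were checked with FastQC 0.11.9, aligned with STAR 2.7.10b to GRCm39 and quantified with RSEM 1.3.3, and the authors deposited whole-number raw counts per gene, 1 column per tumor. How RSEM estimates became whole numbers is not given in the sources used here. Groups came from the genotype labels.

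Counts were tested with edgeR 4.0.16 in R 4.3.3 (TMM scaling, filterByExpr, quasi-likelihood test) and adjusted by Benjamini-Hochberg over all genes tested. Each mutant was fitted with MaP-/- tumors alone, and the mutants were compared in a fit of all 18. A standard error is the log2 fold change divided by the square root of the F statistic. DESeq2 1.42.0, other scalings and filters, 1 library per mouse and leaving out each tumor were alternatives, and the test was tried on simulated counts. Tumors of 1 mouse are not independent, and nothing corrects for that in the main test. Totals were 23113578 to 37365062 counts per tumor, and the least precise levels were those of Psma8 (4 to 50 counts) and Psmb11 (0 to 39 counts). No 2 tumors of a group had more than 1.35% of gene counts in common, so none was counted as a repeat.

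Named with their levels were the immunoproteasome genes, their counterparts, Psme1 and Psme2, and per comparison the 3 smallest p and 3 largest changes. Levels were printed for each MaPR245W/- tumor and as ranges for the other groups. Every called gene was named with fold changes. Other genes, such as the ends of a range, Psmg1, Psmd4 and the regions around Psmb4 and Psmg1, were chosen after their values were seen. The members and lists were chosen with earlier results of these data known. Near copies (at least 90% identity over 200 bases, blastn 2.17.0) were summed as an alternative chosen after seeing the data. Ratios used counts plus 0.5 and exact permutation tests, and correlations 100000 resamples, in Python 3.11.15 with scipy 1.17.1. Of 57126 genes, 56620 matched GENCODE M39, used for lengths and promoters. Some results on partner genes are not reported here.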

Additional observations from a re-analysis of the deposited data

Results flagged for a closer look

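Among the genes named with their levels in each group, 57 groups of tumors were tested for a value that stands apart by Dixon's test. It was run on CPM and flagged 5. At its level of 0.05, chance would flag 2.85 if the groups were independent and the values normally distributed. The groups are of genes measured in the same 18 tumors, and the distribution was not checked. Whether 5 is more than chance thus cannot be judged here. Psmb4 was at 117.6 CPM in YZ7 (nearest other MaPR172H/- tumor 96.42 CPM) and at 426.8 CPM in JM779-T1 (nearest MaP-/- tumor 167.8 CPM). YZ11 stood apart among MaPR172H/- tumors for Psmb8, at 191.6 CPM against 107.8 CPM for the next, and for Psmd3, at 196.4 CPM against 141.5 CPM. Psme1 was at 97.4 CPM in JM663-T1, where the next MaP-/- tumor had 66.58 CPM.

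The effects of the 2 mutants, each against the same MaP-/- tumors, differed for 8 genes by edgeR in the fit of all 18 tumors (background 9.4%). In that fit the difference of effects is the direct contrast of the mutants given above. These are thus the same 8 genes and values, not a further result. The effect in MaPR172H/- minus that in MaPR245W/- was -0.87 for Psma2, -1.40 for Psma3, -1.27 for Psma5, -1.08 for Psma6, -0.60 for Psmb3, -1.10 for Psmb4, -0.79 for Psmd13 and -0.80 for Psmg2 on the log2 scale. The platform and the molecular subtype differ between these groups as well, and their parts cannot be told apart.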

How the results depend on the processing

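Over all alternatives, 882 values of single genes and 916 of the comparisons kept their direction and side of the threshold (counts and medians: stayed close). Of single genes 62 values lost the call, 4 gained one and 14 reversed. Of the comparisons 3 lost it, 4 gained one, 17 reversed and 20 moved. The cause was not tested. In MaPR172H/- against MaP-/-, 2 members were lower with no filter on low counts and 1 was higher with the tumors of 1 mouse summed, where Psme2 turned to 0.026. With near copies summed Psmb5 turned to 0.090. In MaPR245W/- against MaP-/-, DESeq2 gave 1 higher member, and Psmb9 turned to -0.058 among protein-coding genes. Between the mutants, DESeq2 gave 13 lower and 1 higher members and a beta gene median of -0.38, no filter 5 lower, and 10 counts in every tumor 1 higher. With each tumor as 1 value, the log2 ratio of Psmb10 to Psmb7 differed from MaP-/- by -0.061 (MaPR172H/-) and -0.15 (MaPR245W/-). For Psmb8 with Irf1, r was 0.594 without the 2 farthest mice and 0.443 on HiSeq, for Psmb8 with Psmb5 0.00356 on HiSeq and 0.449 on NovaSeq, for Psmb10 with Irf1 0.909 on HiSeq (adjusted exact p = 0.0821) and for Psmb10 with Psmb7 0.633 on HiSeq.

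Leaving out 1 tumor gave these ranges. In MaPR172H/- against MaP-/-, lower members ran from 2 to 5 and higher from 3 to 4, Psmb10 from -0.050 (YZ11 left out) to 0.21, Psme2 from -0.19 to 0.040 (JM663-T1, and above 0 also without JM663-T2), the other cap genes' median from -0.27 to 0.17 (JM779-T1), the Psmb10 to Psmb7 ratio from -0.21 to 0.19 and the Psmb9 to Psmb6 ratio from -0.36 to 0.012. In MaPR245W/- against MaP-/-, Psmb8 ran from -0.30 (JM1133) to 0.35, Psmb9 from -0.44 (JM1133) to 0.27, Psmb10 from -0.14 (JM1233) to 0.58, the immunoproteasome median from -0.30 to 0.35 and the Psmb10 to Psmb7 ratio from -0.48 to 0.26. Between the mutants, lower members ran from 5 to 10, higher from 0 to 1 (RM0014), Psmb10 from -0.45 to 0.26 (JM1233), the immunoproteasome median from 0.25 to 0.93 (JM1133), the Psmb10 to Psmb7 ratio from -0.17 to 0.57 and the Psmb9 to Psmb6 ratio from -0.10 to 0.45. No paired analysis was possible because the replicate numbers only follow the order of the tumors and the groups share no mice.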
